A study of Mus musculus with 2 samples.

Results

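The genes described here are those of the primary cilium and of cystic kidney disease, followed through 1 mouse kidney tumour and 1 normal mouse kidney by total RNA-seq. They were chosen by a pattern over gene symbols that uses no measured value, although the theme was picked with earlier results of these data known. It takes the Ift, Bbs, Nphp, Pkd, Pkhd1, Glis2, Glis3 and Rfx genes and single genes of the ciliary base and membrane. The pattern took 55 of the 30744 symbols in the deposited count table, and 52 of the 55 had at least 20 reads over both libraries and are called measured. Foxj1, the master regulator of motile cilia, is not among the symbols taken.

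The kidney tumour came from an animal of genotype Tet-OSKM/mPer2-luc that received doxycycline, with the source labelled Dox ON. The normal kidney has the genotype label WT and received no doxycycline, and both carry the strain label C57BL/6 x DBA/2 F1. In Tet-OSKM animals, doxycycline acts through the M2rtTA activator, placed in the broadly active Rosa26 locus, to switch on Oct4, Sox2, Klf4 and c-Myc, the factors that reprogram somatic cells, while mPer2-luc reports on the clock gene Per2 by light. According to the labels' protocols the animals were chimeras made by injecting embryonic stem cells with these transgenes into hybrid blastocysts, so a tissue can hold cells of the host that lack the transgenes. That protocol stands with both libraries, and the sex, age and number of animals and the length of treatment are not given in the sources used here.

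The primary cilium is a single antenna of the cell surface that grows from a centriole and carries signalling receptors and channels. Intraflagellar transport (IFT) moves cargo along it, complex B with kinesin towards the tip and complex A with dynein back to the base, the BBSome carries membrane proteins, and the transition zone is the gate at the base. In the kidney nearly every tubule cell bears such a cilium in the lumen, and mutations in its genes cause cystic kidney diseases, with the polycystins and fibrocystin among the best known. RFX transcription factors bind the X-box element in the promoters of many ciliary genes.

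Promoters of 43 members stand in the RefSeq table of assembly GRCm38.p6, as 250 bases before and 50 after the start site, and 12 members have no entry there. The X-box was searched as GTNNCCNNNGNAAC on both strands, and 8 of the 43 members (18.6%) held it, against 673 of 27025 genes (2.49%) and 714 of 32851 promoters (2.17%) in the whole table. The windows shown are those in which the element known from RFX binding was found, each 30 bases in the orientation of the gene with the 14 bases of the match in capitals, and Ift22 has 2 of them. On the plus strand lie Ift22 (chr5:136908079-136908108 and chr5:136908109-136908138), Ift57 (chr16:49699199-49699228), Mks1 (chr11:87853183-87853212) and Nphp4 (chr4:152477903-152477932). On the minus strand lie Bbs1 (chr19:4906605-4906634), Bbs4 (chr9:59353464-59353493), Bbs7 (chr3:36613489-36613518) and Tmem216 (chr19:10555723-10555752).
Bbs1: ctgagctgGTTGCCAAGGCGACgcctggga
Bbs4: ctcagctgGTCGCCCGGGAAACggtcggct
Bbs7: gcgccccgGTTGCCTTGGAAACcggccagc
Ift22: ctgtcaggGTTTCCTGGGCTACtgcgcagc
Ift22: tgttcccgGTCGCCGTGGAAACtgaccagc
Ift57: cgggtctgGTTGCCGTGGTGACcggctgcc
Mks1: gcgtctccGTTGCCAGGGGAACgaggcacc
Nphp4: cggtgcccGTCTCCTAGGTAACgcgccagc
Tmem216: tgtacgcaGTTTCCATGGGGACtgaacatg
The matches of Bbs1, Bbs4 and Tmem216 lie just after the start site, and those of the other 5 genes lie before it, at -121 to -108 for Bbs7 and -87 to -74 for Ift57. The shorter element GTTGCC, which can lie inside an X-box match as it does in Bbs1, occurred on either strand in 17 of the 43 members (39.5%), against 14.1% of all genes and 12.5% of all promoters in the table. The members' promoters also had more CpG, with a median of 22 CpG dinucleotides and 58.3% GC, against 7 and 52.7% over all promoters. Of the 8 genes with an X-box match, 3 (Bbs1, Bbs7 and Ift57) were called lower in the tumour library, as were 28.0% of all measured genes, and the other 5 were called neither way. The call of Ift57 was lost under 4 of 6 other scalings and units. A match describes the letters of the promoter and is no evidence that a factor bound there.

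The tumour library held 20836819 exon reads (62.8% of its total) and the normal library 29258428 (72.4%). Mitochondrial genes took 1.22% of exon reads in the tumour library and 10.6% in the normal library. With 1 library per group there is no replicate check and no p-value, so every value below compares these 2 libraries and not the conditions. Ratios are of TMM-scaled counts, tumour over normal, with a 95% interval that covers counting error only. A gene was called higher or lower when it differed 2-fold or more with an interval that left out 1. A count of 0 was replaced by 3 reads, which makes the fold a bound. The normal library had the markers of its labelled tissue, with all 10 proximal tubule markers read and a summed level of 26667 CPM for them, against 855 CPM in the tumour library. The tumour library had all 9 pluripotent cell markers, with Lin28a at 12152 reads in the tumour and 1 in normal kidney. Pou5f1 and Sox2, also on that list, are carried by the transgene, and reads of transgene and own gene were not told apart. In bulk tissue, fewer cells of a type and less RNA per cell cannot be told apart.

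Most genes of the ciliary machinery differed less than 2-fold between the libraries, and Pkhd1, Pkd2 and both Glis factors were lower in the tumour while Ofd1 and 3 RFX factors were higher. Of the 52 measured members, 7 (13.5%) were called higher in the tumour library, where 31.2% of all 16326 measured genes were. Lower were 13 members (25%), against 28.0% of all measured genes, and neither were 32 members (61.5%), against 40.8%. The genes called higher were Ofd1, Pkd1l1, Pkd2l1, Pkhd1l1, Rfx2, Rfx3 and Rfx4. Those called lower included Anks6, Bbs1, Bbs7, Glis2, Glis3, Ift122, Ift172, Ift57, Invs, Pkd2, Pkd2l2 and Pkhd1. The median log2 ratio of the members was -0.07, and that of all measured genes was 0.08. Among the 48 members with at least 100 reads, 66.7% were called neither way, against 43.0% of the 13670 genes at that depth, so the difference in that share was not limited to low counts. The number and direction of the calls depended on the scaling. Plain CPM called 17 of the 52 members higher and 11 lower, against 42.1% and 20.2% of all measured genes. The deposited totals called 12 higher and 11 lower, against 37.9% and 22.7%. Both settings left fewer members uncalled than TMM scaling did. With TMM scaling 35% of the member calls were higher, and 52.8% of the calls over all genes. With plain CPM the shares were 60.7% and 67.6%, and with the deposited totals 52.2% and 62.5%. With RPKM plus 0.1 the members had 11 calls in each direction, and 62.6% of the calls over all genes were higher. Plain CPM moved every log2 ratio up by 0.56 and turned the members' median to 0.49, beside 0.64 for all genes. Ofd1, Rfx2 and Rfx3 kept their call as higher under the 6 other scalings and units tried, and 9 genes, among them Pkhd1, Pkd2, Glis2, Glis3, Bbs7, Anks6, Invs and Ift122, kept theirs as lower. Among the 6, DESeq2 size factors and TMM without mitochondrial models and Rn45s moved the members' median by only -0.0068 and -0.0012. Neither changed a member's call.

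**Figure D1:**
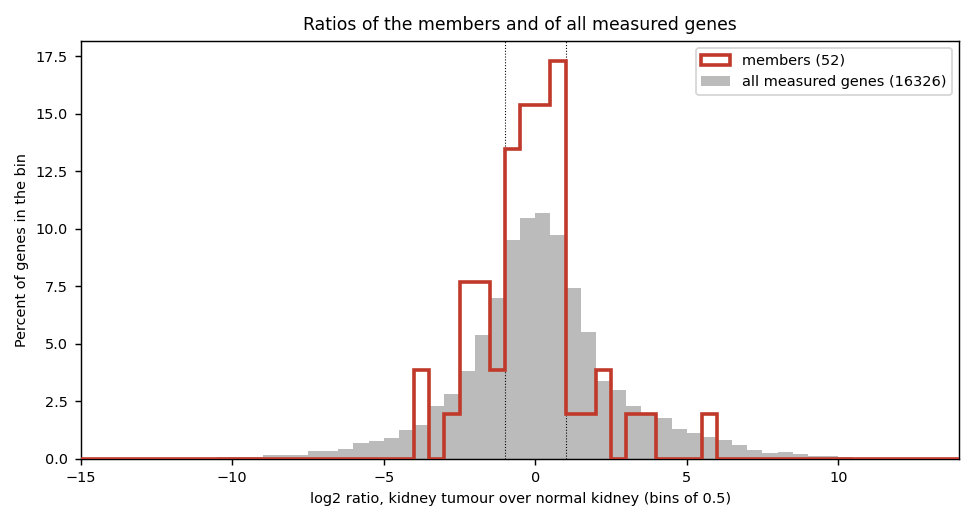
Percent of genes per bin of 0.5 on the log2 ratio, kidney tumour over normal kidney (TMM-scaled counts), for the 52 measured members (red outline) and all 16326 measured genes (grey); dotted lines mark 2-fold. A larger share of the members lies between the lines, 61.5% against 40.8% called neither way, and 13.5% against 31.2% were called higher.

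Beside these counts, the tubule and collecting duct markers were lower in the tumour library, 10 of 10 for proximal tubule, 8 of 8 for loop of Henle and distal tubule, 7 of 7 for principal cells and 6 of 6 for intercalated cells. Their summed levels were 855, 56.7, 25.4 and 10.7 CPM in the tumour library, against 26667, 10573, 315 and 333 CPM in the normal library. Pvalb, a distal tubule marker, had 0 reads in the tumour. Markers of pluripotent cells (9 of 9, 3137 CPM in tumour and 1.62 CPM in normal kidney) and of dividing cells (8 of 8, 2813 and 29.5 CPM) were higher, and 5 of the pluripotent markers were at 0 reads in normal kidney. The part of these cell types in the members' ratios was not tested.

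Of the genes mutated in the common forms of polycystic kidney disease, Pkhd1 and Pkd2 were lower in the tumour library and Pkd1 was called neither way. Pkhd1, which encodes fibrocystin, a membrane protein of the cilium mutated in recessive polycystic kidney disease, had 1428 reads in the tumour and 17215 in normal kidney. It was 12.6-fold lower in the tumour library (interval 12.0 to 13.3). Per transcript length it fell to 3.35 RPKM in the tumour, against 33.1 RPKM in normal kidney, where it was the highest of all members; in the tumour it ranked 32 among the 55. Pkd2, which encodes polycystin-2, a cation channel of the cilium and endoplasmic reticulum, had 1282 reads in the tumour and 6686 in normal kidney, 5.47-fold lower (5.15 to 5.81). Its partner Pkd1, which encodes polycystin-1, the large receptor-like protein mutated in most families with dominant polycystic disease, had 1863 and 2282 reads. Its log2 ratio was -0.36, short of 2-fold, and it turned to 0.20 with plain CPM. Pkd1 shares 3.98% of its exonic bases with Tsc2 on the opposite strand, which had 1842 reads in the tumour and 2509 in normal kidney.

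As a share of the family's summed RPKM, Pkhd1 was 20.7% in the tumour and 47.7% in normal kidney, Pkd1 was 24.6% and 5.76%, and Pkd2 was 46.0% and 45.9%. The polycystin-2 to polycystin-1 transcript ratio, a measure within 1 library that no scaling alters, was 1.87 in the tumour and 7.96 in normal kidney. That of Pkhd1 over Pkd1 was 0.842 in the tumour and 8.28 in normal kidney. These pairs of transcripts therefore stood in different proportions in the libraries, whatever the scale between them.

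The remaining members of the polycystin family were little read. Pkd1l1, a polycystin-1 relative that acts in left-right patterning of the embryo, had 29 reads in the tumour and 0 in normal kidney, at least 9.22-fold higher. Its model in the table covers 996 bases, and another of 584 bases had 14 and 1 reads. With both summed the log2 ratio was 5.36, against 3.21 for the bound of the first. Pkd2l1, a channel known from sour-sensing taste cells and from neurons that contact the cerebrospinal fluid, had 49 reads and 0, at least 15.6-fold higher. Pkd2l2, a relative known from testis, went the other way with 0 reads in the tumour and 43 in normal kidney, at least 15.0-fold lower. It shares 10.9% of its exonic bases with Fam13b on the opposite strand, which had 1248 reads in the tumour and 829 in normal kidney. Pkhd1l1, a fibrocystin relative known from the stereocilia of hair cells, had 19 and 4 reads, 4.53-fold higher (1.51 to 18.3). All 4 stayed under 1 RPKM in both libraries, and their calls were lost with a pseudocount of 1 RPKM. The call of Pkhd1l1 was also lost with RPKM plus 0.1, and when the interval had to lie wholly beyond 2-fold. Pkd1l2 (7 reads in the tumour and 1 in normal kidney) and Pkd1l3 (5 and 2) were not measured.

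**Figure D2:**
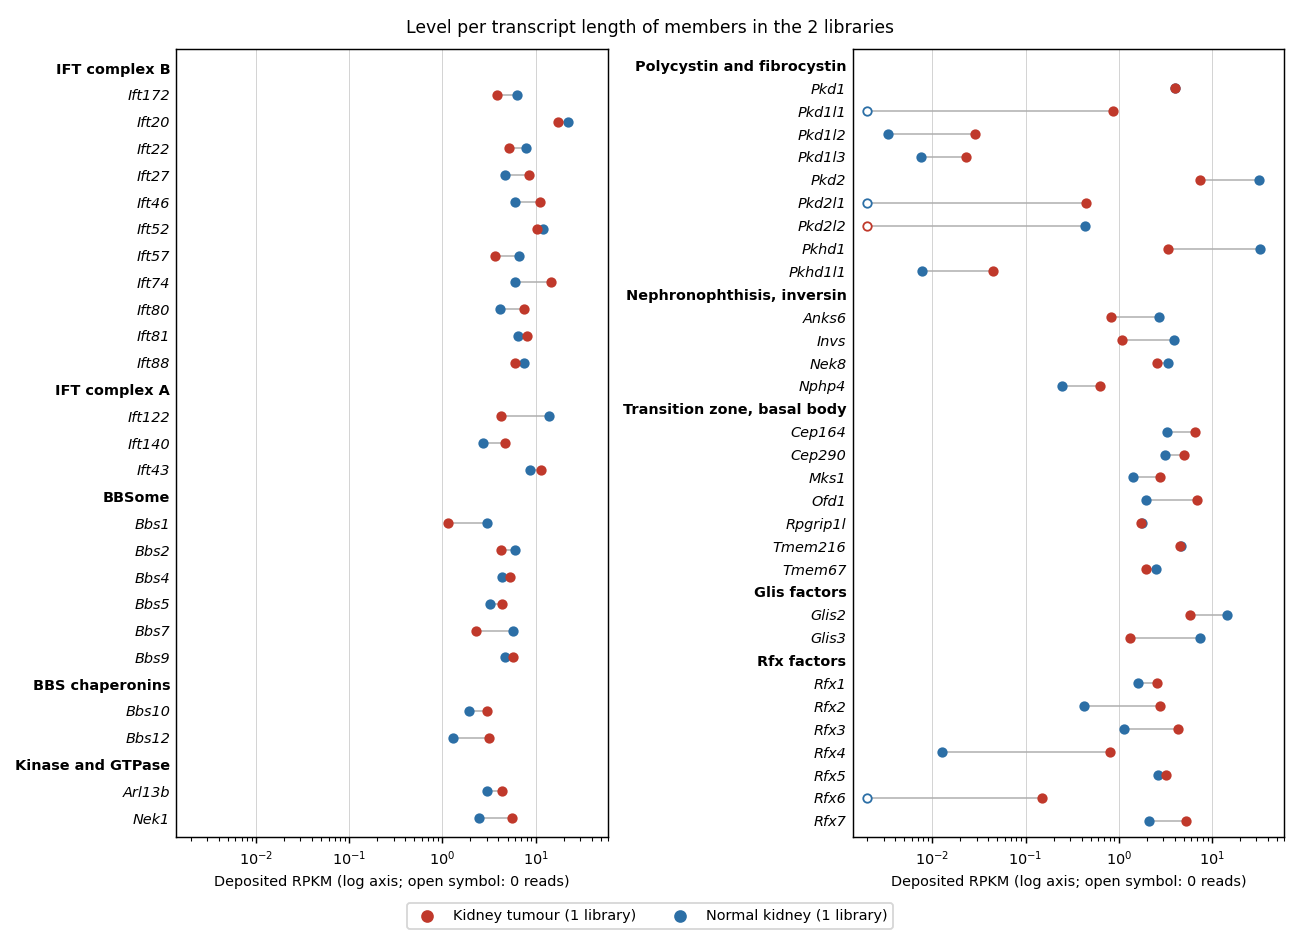
Deposited RPKM of members on a log axis, kidney tumour in red and normal kidney in blue, with 1 library each and an open symbol for 0 reads. Pkhd1 and Pkd2 are the highest members in normal kidney, at 33.1 and 31.8 RPKM, and Ift20 is the highest in the tumour at 17.4 RPKM; RPKM rests on the deposited totals, which puts log2 ratios 0.35 above those of TMM-scaled counts.

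Of the nephronophthisis genes, 3 of 6 were called lower in the tumour (against 28.0% of all genes), 3 neither and none of the 6 higher, with a median log2 ratio of -1.17. Inversin (Invs), Anks6 and the kinase Nek8 are proteins of the inversin compartment of the proximal cilium. Invs had 203 reads in the tumour and 889 in normal kidney, 4.59-fold lower (3.94 to 5.37). Anks6, an adaptor that binds and activates NEK8, had 96 and 389 reads, 4.25-fold lower (3.39 to 5.37). Nek8 was within 2-fold with 239 and 377 reads, a log2 ratio of -0.73, so these transcripts were not lower to the same degree. Exons of Invs overlap by 1.98% with Tex10 on the other strand.

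Nphp4, a scaffold of the transition zone, had 104 reads in the tumour and 50 in normal kidney. Its ratio of 1.98-fold (1.40 to 2.84) fell just short of a call as higher. Nphp4 was called higher with plain CPM, the deposited totals and RPKM plus 0.1. Per transcript length it was among the lower members, at 0.627 RPKM in the tumour and 0.248 RPKM in normal kidney.

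Both Glis factors were lower in the tumour. Glis3, a zinc finger factor whose loss in mouse gives cystic kidneys and neonatal diabetes, had 325 reads in the tumour and 2275 in normal kidney, 7.34-fold lower (6.53 to 8.27). A second Glis3 model had 113 and 1073 reads. Glis2, known in nephronophthisis as NPHP7 and from tubule maintenance in mouse, had 695 and 2123 reads, 3.20-fold lower (2.94 to 3.49), with 10.4% of its exonic bases shared with Pam16 on the opposite strand. By RPKM, Glis2 exceeded Glis3 in both libraries, by a ratio of 4.44 in the tumour and 1.94 in normal kidney.

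Of the 6 measured RFX genes, 3 were called higher in the tumour (50%, against 31.2% of all genes), 3 neither and none of the 6 lower, with a median log2 ratio of 1.27. Rfx3, a main regulator of ciliary genes in mouse, had 1331 reads in the tumour and 427 in normal kidney, 2.97-fold higher (2.67 to 3.32). Rfx2, which acts with motile cilium and spermatid genes, had 310 and 57 reads, 5.19-fold higher (3.90 to 7.01). Rfx4, known from brain development and testis, had 106 and 2 reads, 50.6-fold higher with a wide interval of 13.7 to 423. Its log2 ratio of 5.66 became 3.02 with RPKM plus 0.1 and 0.84 with RPKM plus 1, where the call was lost. Rfx6, a factor of pancreatic islet development, had 17 and 0 reads and was not measured. These 4 were all better read in the tumour although its library held fewer exon reads.

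The widely expressed RFX genes differed less. Rfx7 had 1399 reads in the tumour and 682 in normal kidney, 1.96-fold (1.78 to 2.15), just under the threshold. It was called higher with plain CPM, the deposited totals, RPKM plus 0.1 and RPKM plus 1. Rfx1 had 351 and 267 reads. Rfx5, which controls MHC class II genes and has no established role in cilia, had 442 and 448. It shares 26.8% of its exonic bases with a transcript on the opposite strand, the largest share of any member. As a share of the summed RPKM of the 7 genes, Rfx7 came first in the tumour (27.6%, against 26.6% in normal kidney), while Rfx5, at 16.6% there, was first in normal kidney with 33.4%. Rfx3 and Glis3 are next to each other on chromosome 19, 247.7 kb apart with no other symbol of the table between them, and were called in opposite directions. Rfx3 over Glis3 by RPKM was 3.35 in the tumour and 0.154 in normal kidney.

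Beside the RFX values stand those of 17 measured markers of multiciliated cells. Of these, 10 were higher in the tumour (58.8%, against 31.2% of all genes) and 3 lower (17.6%, against 28.0%). The summed levels of the 17 were 65.8 CPM in the tumour and 58.1 CPM in normal kidney. With RPKM plus 1, 4 of the 17 were higher and 2 lower, against 24.5% and 16.9% of all genes. The share called higher was then near that of all genes. Foxj1 had 158 and 8 reads, Hydin, of the axonemal central pair, 216 and 4, and Ccdc40, of the axonemal ruler, 387 and 2. Zmynd10, a dynein assembly factor, was lower with 37 and 636 reads. Mcidas and Gmnc, which start the multiciliated programme, had 3 and 4 reads in the tumour and 0 and 1 in normal kidney. None of the 8 spermatid markers was measured, and of 8 photoreceptor markers 1 was, Rom1 with 87 and 154 reads. The part of such cells in the RFX values was not tested.

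**Figure D3:**
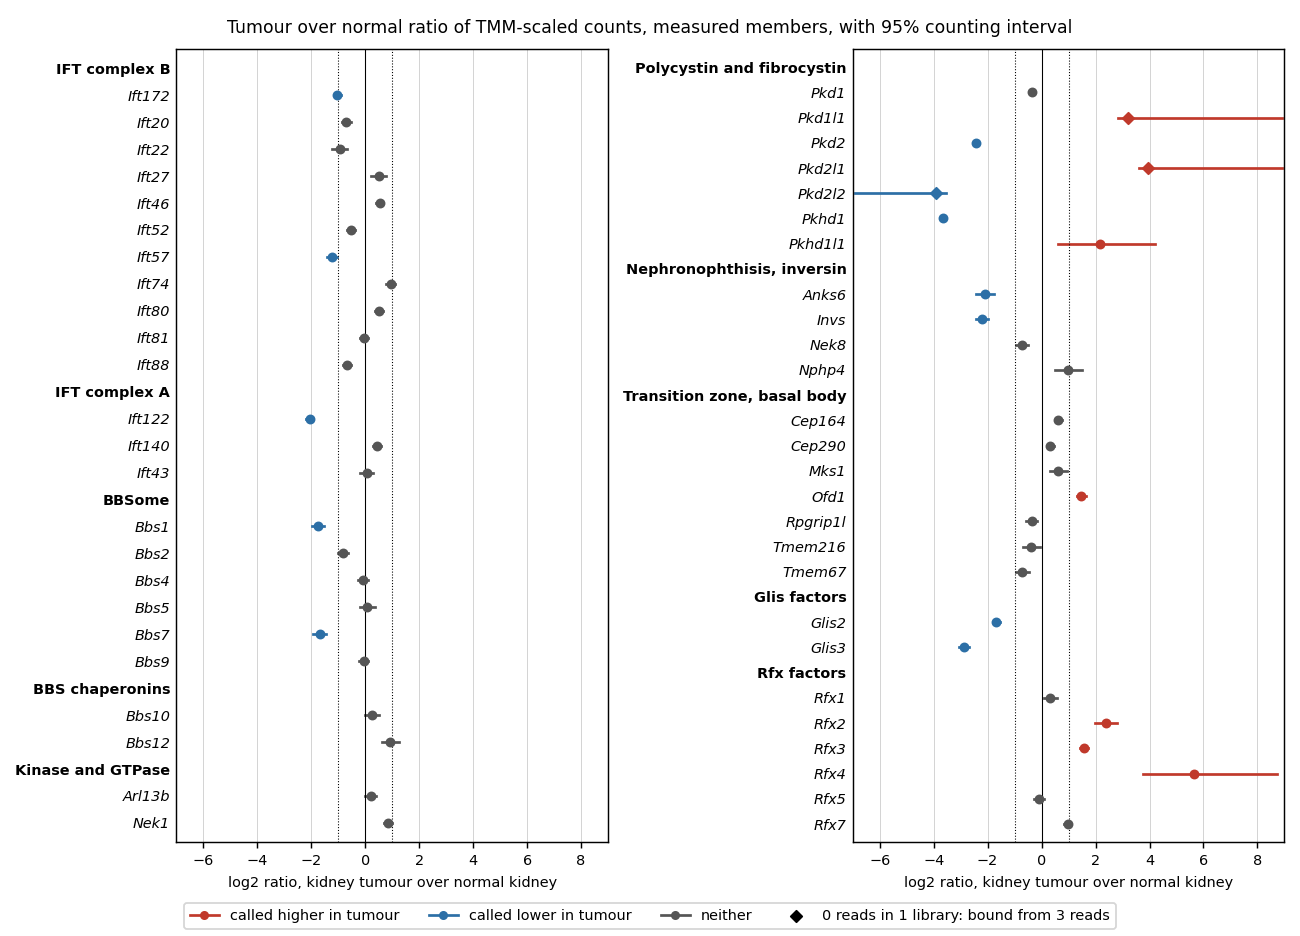
Log2 ratio of TMM-scaled counts, kidney tumour over normal kidney, of measured members with 95% counting intervals, grouped by role; diamonds are bounds from a count of 0 and lines that reach the frame go on beyond it. Red marks the 7 genes called higher and blue those called lower; the RFX genes called are red and both Glis genes are blue.

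The genes of the ciliary complexes were mostly within 2-fold. Of the 37 members that encode IFT, BBSome, chaperonin, nephronophthisis, transition zone, kinase or GTPase proteins, 28 (75.7%) were called neither way. Over all measured genes that share was 40.8%. Of the 37 members, 8 were lower (21.6%, against 28.0% of all genes) and 1 was higher (2.70%, against 31.2%). Plain CPM, which moves every ratio up alike, called 10 of the 37 higher, 6 lower and 21 neither. Over all genes it called 42.1% higher and 20.2% lower. The deposited totals called 5 of the 37 higher and 6 lower, against 37.9% and 22.7% of all genes. Within IFT complex B, the anterograde complex, 9 of 11 genes were within 2-fold (81.8%, against 40.4% of all measured genes). The median log2 ratio of the 11 genes, -0.54, became 0.02 with plain CPM. Ift172, a large peripheral subunit, had 694 reads in the tumour and 1355 in normal kidney, 2.05-fold lower (1.87 to 2.25). Ift57 had 305 and 685, 2.35-fold lower (2.05 to 2.70). Neither call held with plain CPM, the deposited totals or RPKM. Plain CPM called none of the 11 lower and 4 higher, Ift27, Ift46, Ift74 and Ift80, against 20.2% lower and 42.1% higher of all genes.

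The other 9 complex B genes had log2 ratios from -0.95 to 0.94. Ift74, which with its partner Ift81 binds tubulin, had 1025 reads in the tumour and 510 in normal kidney, 1.92-fold (1.72 to 2.14), and was called higher with plain CPM, the deposited totals and both RPKM settings. Ift81 had 785 and 766 reads, so that the RPKM of Ift74 over Ift81 was 1.80 in the tumour and 0.919 in normal kidney. Ift22, an IFT GTPase, lay at the other end with 155 and 286 reads, 1.93-fold lower than in normal kidney and uncalled. Its relative Ift27, which links IFT to BBSome exit from the cilium, had 282 and 191. Ift88, a core subunit mutated in the polycystic orpk mouse, had 611 reads in the tumour and 932 in normal kidney. Ift52, also of the core, had 732 and 1014. Ift46 had 1217 and 802 reads, Ift80, mutated in Jeune dystrophy of the thorax, 1027 and 686, and Ift20, which also works at the Golgi, 459 and 711. Ift20 was the highest of all members in the tumour at 17.4 RPKM, and ranked 3 in normal kidney at 22.1 RPKM.

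Complex A was uneven. Ift122, a core subunit that is needed for entry of membrane proteins into the cilium, had 567 reads in the tumour and 2248 in normal kidney, 4.16-fold lower (3.79 to 4.56). Ift140, its partner in the same core and a gene of cystic and Mainzer-Saldino kidney disease, had 905 and 644, a log2 ratio of 0.42, and Ift43 had 304 and 279. Ift122 over Ift140 by RPKM was 0.896 in the tumour and 4.99 in normal kidney, a 5.57-fold difference in proportion between 2 subunits of a single complex. Ift122 over Ift43 was 0.370 and 1.60.

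In the BBSome, 2 of 6 genes (33.3%) were lower, a share near the 28.0% of all genes, and 4 were neither. Bbs1, which holds the most frequent human Bardet-Biedl mutation and contacts cargo receptors, had 211 reads in the tumour and 681 in normal kidney, 3.38-fold lower (2.89 to 3.97), a call lost with a pseudocount of 1 RPKM. Bbs7 had 195 and 598, 3.21-fold lower (2.73 to 3.80). Bbs2, which pairs with Bbs7 in the core, had 417 and 710, a log2 ratio of -0.84. Bbs4 (445 and 448), Bbs5 (204 and 184) and Bbs9 (645 and 643) had nearly equal reads, with log2 ratios from -0.08 to 0.08. The X-box promoters printed above include those of Bbs1 and Bbs7, which were lower, and of Bbs4, which was not called. Bbs1 over Bbs9 by RPKM was 0.197 in the tumour and 0.638 in normal kidney. The chaperonin-like genes Bbs10 and Bbs12, which help the BBSome assemble, had 272 and 254 reads in the tumour and 217 and 128 in normal kidney. Bbs12 reached 1.89-fold (1.53 to 2.36) and was not called, but it was called higher with plain CPM, the deposited totals and RPKM plus 0.1.

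**Figure D4:**
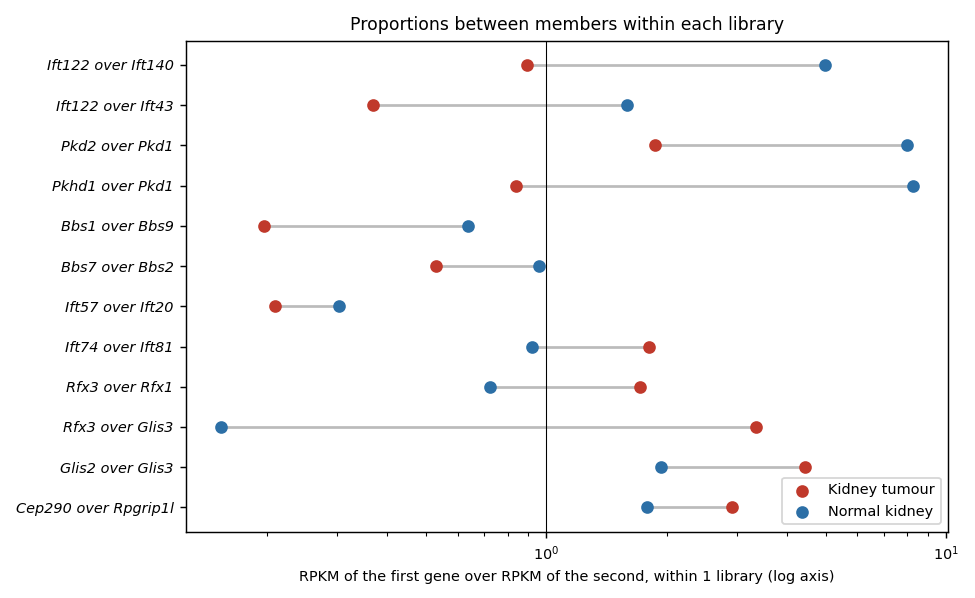
RPKM of a member over that of another in the same library, on a log axis, kidney tumour in red and normal kidney in blue, with 1 library each; scaling between libraries does not enter. Ift122 over Ift140 stands at 0.896 in the tumour and 4.99 in normal kidney, and Rfx3 over Glis3 crosses 1, at 3.35 and 0.154.

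At the transition zone and basal body, 1 of 7 genes was called higher (14.3%, against 31.2% of all genes) and 6 were called neither way. Ofd1, an X-linked gene of the distal centriole and of centriolar satellites that is mutated in oral-facial-digital syndrome with cystic kidneys, had 1024 reads in the tumour and 351 in normal kidney, 2.78-fold higher (2.46 to 3.15). Trappc2, on the other strand over 2.94% of its exonic bases, had 65 and 88. Cep290, which bridges membrane and axoneme at the transition zone, had 1330 and 1011 reads, and Cep164, of the distal appendages, 1178 and 734. Mks1 and Tmem216, both Meckel syndrome genes, had 218 and 154 reads in the tumour and 135 and 191 in normal kidney. Tmem67, whose product meckelin spans the membrane, had 225 and 353, and the scaffold Rpgrip1l 399 and 493. The sign of the log2 ratio of Rpgrip1l (-0.37) and Tmem216 (-0.38) changed with plain CPM. The GTPase Arl13b, which marks the ciliary membrane, had 510 and 425 reads. The kinase Nek1, whose mutation gives polycystic kidneys in mouse, had 1033 and 553, 1.78-fold (1.61 to 1.98). Plain CPM, the deposited totals and RPKM plus 0.1 called Nek1 higher.

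The other genes of these pathways, which the name pattern does not take, were mostly called neither way in the IFT, motor and transition zone lists. Of 9 further IFT subunits, 8 were neither (88.9%, against 40.8% of all genes) and 1 was lower. The subunit Cluap1 had 404 reads in the tumour and 626 in normal kidney, and Wdr35 of complex A had 1088 and 1161. The gene called lower, Ttc30b, with 91 and 327 reads, has a near-identical copy in Ttc30a1, so the split of its reads is uncertain. Of 10 measured ciliary motor genes, 8 were neither (80%, against 40.8% of all genes). Among these 8, the kinesin-2 subunit Kif3b had 1107 reads in the tumour and 1605 in normal kidney. The dynein-2 light chain Tctex1d2, also among them, had 163 and 245. The dynein-2 chain Dync2li1 was 3.80-fold lower with 205 and 744 reads, and Dynll1, a light chain of many complexes outside cilia, was 3.72-fold higher with 3769 and 966. Of 16 further transition zone genes, 5 were higher (31.25%, against 31.2% of all measured genes), 1 lower and 10 neither. Iqcb1, also named Nphp5, had 800 and 222 reads, Tmem17 had 114 and 43, Rpgr had 589 and 233, and B9d2, the gene called lower, had 41 and 125.

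Of 9 further BBSome and Bardet-Biedl genes, 5 were lower (55.6%, against 28.0% of all genes), 1 higher and 3 neither. Their median log2 ratio was -1.09, and 1 of the 9 was called lower with plain CPM, against 20.2% of all genes. Wdpcp (144 reads in the tumour and 534 in normal kidney), Lztfl1 (470 and 1103) and the chaperonin-like Mkks (632 and 1447) were among the 5. The gene called higher, Cct2, with 16847 and 4921 reads, is a subunit of the general chaperonin that folds tubulin and actin. Of 24 further cystic kidney genes, 6 were lower, 3 higher and 15 neither, shares of 25% and 12.5% against 28.0% lower and 31.2% higher over all genes. Their median was -0.50, which turned to 0.06 with plain CPM. Some of the 24 are counted on other lists too. Wdr19 and Ttc21b are also among the further IFT subunits, and Umod is among the loop of Henle markers. Cep83 is also on the distal appendage list and Cys1 on the membrane targeting list. The lower genes included Umod, the most abundant protein of normal urine, with 652 and 103267 reads, and Cys1, lost in the cpk mouse, with 10 and 249. Among those higher was Zfp423, a factor of neural and fat development tied to nephronophthisis, with 761 and 39 reads.

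The genes of the centriole cycle were mostly higher in the tumour library. Of 18 genes for centriole duplication and cilium disassembly, 15 were higher in the tumour (83.3%, against 31.2% of all genes), 1 lower and 2 neither, with a median log2 ratio of 2.41. Plk1 had 1739 reads in the tumour and 11 in normal kidney, Stil 768 and 10, and Aurka, the kinase that drives cilium resorption, 1850 and 31. The exception was the scaffold Nedd9, which activates Aurora A, with 668 and 2721 reads, 4.27-fold lower (3.92 to 4.65). The 8 dividing cell markers were all higher beside them, with Plk1 on both lists, and their part was not tested. Of 8 centriolar satellite genes 3 were higher (37.5%, against 31.2% of all genes) and 5 neither. Pcm1, the scaffold of the satellites, had 7312 and 3194 reads, Cep131 had 578 and 116, and Cep72 had 608 and 134.

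Of 14 genes of the distal appendages and of cilium initiation, 2 were higher (14.3%), 3 lower (21.4%) and 9 neither. Over all genes 31.2% were higher and 28.0% lower. The median of the 14 genes was -0.39 and became 0.17 with plain CPM. Rab3ip, which encodes Rabin8, the exchange factor that activates Rab8 at the growing cilium, had 870 reads in the tumour and 5279 in normal kidney. The membrane-shaping Ehd3 had 216 and 1471 and Ehd1 1677 and 4060, while the appendage protein Odf2 had 4132 and 883. Of 9 genes for targeting to the ciliary membrane, 3 were lower (33.3%, against 28.0% of all genes), 1 higher and 5 neither. The median of -0.59 became -0.04 with plain CPM, which called 1 lower and 2 higher, against 20.2% and 42.1% of all genes. Unc119b, which carries lipid-modified cargo, had 1687 and 4531 reads, the phosphatase Inpp5e 409 and 833, both calls that plain CPM did not make, and Gpr161, a ciliary receptor that restrains Hedgehog signalling, was 13.1-fold higher (7.31 to 25.9) with 165 and 12.

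**Figure D5:**
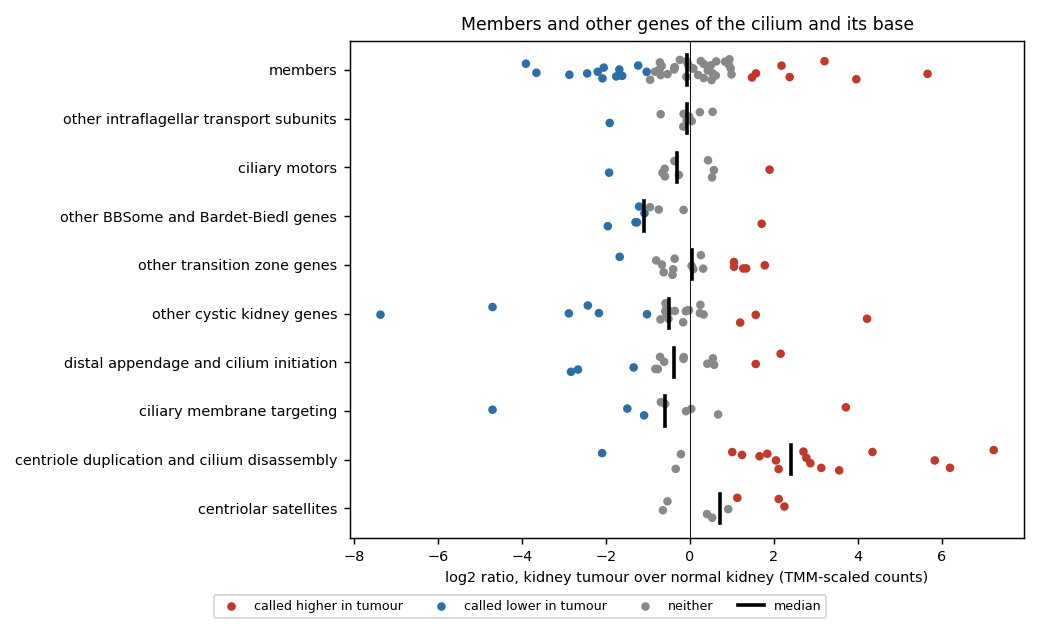
Log2 ratio of TMM-scaled counts, kidney tumour over normal kidney, of the members and of 9 lists of related genes; each point is a gene, red called higher, blue called lower, grey neither, with the median as a bar and points spread vertically for sight. The centriole duplication list has its median at 2.41 with 15 of 18 genes higher, and the members' median is -0.07.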

How the data were processed

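Total RNA was measured in 1 kidney tumour and 1 normal kidney library. Per the labels' protocols, RNA depleted of ribosomal RNA was made into stranded libraries. Per the submitters' processing notes the tools were bcl2fastq, STAR 2.5.0c and HOMER, with build mm10. The handling of multimapping reads and the strand setting of the counting are not given in the sources used here, so overlapping and near-identical genes are uncertain. The authors deposited counts of reads on exons, as whole numbers for 32958 gene models, and RPKM values that rest on the totals per the file headers. RPKM computed again from those counts differed by at most 1.80e-06.

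For each symbol the model with the most reads was kept, which for 2 members meant a choice between models, and 57 rows gave 55 members. Members were grouped by role. The members and all gene lists were chosen with earlier results of these data known. Of 226 list entries, 219 matched a symbol. Library sizes were scaled by TMM in edgeR 4.0.16 (R 4.3.3), with factors of 1.21 for the tumour and 0.824 for the normal library. Genes with at least 20 reads over both libraries were measured. Intervals are exact conditional (Clopper-Pearson) 95% intervals and cover counting error only, and PCR copies cannot be told from separate molecules. The floor of 3 reads for a count of 0 is 0.119 CPM in the tumour and 0.124 CPM in the normal library, and CPM in the text are TMM-scaled. The rule for named genes takes every member and, of each other pathway list, the 3 genes that lie farthest on the side of the list's median at a mean of at least 1 CPM, and the farthest opposite one if at least 2-fold; some genes it takes are not reported here. Marker lists are given as counts and sums, with few genes named. Mcidas, Gmnc, Pvalb and the genes that overlap a member were chosen after their values were seen. Exon overlaps come from GENCODE M21, which placed all 55 members on the same chromosome and strand, and coordinates of promoters are those of RefSeq. The ratios and intervals were tested on counts simulated with counting error alone, as the intervals assume, and with the scaling factors given. That test checks the computation and cannot bear on variation between libraries or on the choice of scaling. DESeq2 1.42.0 size factors, other scalings, filters and call rules made up 11 alternatives. Python 3.11.15, numpy 2.4.6, pandas 2.3.3, scipy 1.17.1 and matplotlib 3.10.9 were used.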

Additional observations from a re-analysis of the deposited data

How the results depend on the processing

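The count of members called lower stayed within 1.5 times of 13 under all 11 alternatives, and that called higher did so under DESeq2 size factors, TMM without mitochondrial models and Rn45s, RPKM plus 1, no filter on reads, summed models and an interval wholly beyond 2-fold. The count called higher, 7 in the main analysis, was 17 with plain CPM, 12 with the deposited totals, 11 with RPKM plus 0.1, 14 at 1.5-fold and 4 with at least 100 reads. The median log2 ratio of the members, -0.07 in the main analysis, was 0.49 with plain CPM, 0.28 with the deposited totals, 0.28 with RPKM plus 0.1 and 0.21 with RPKM plus 1. The median of all genes moved by 0.56, 0.35, 0.32 and 0.16 under the same 4 settings. Plain CPM and the deposited totals shift every ratio alike, the 100 read limit tests fewer genes, and 1.5-fold is a lower bar. The RPKM settings rest on the deposited totals, and RPKM plus 0.1 lost the same lower calls and gained the same higher calls as those totals. The part of the added pseudocount was not tested apart. No called gene changed its direction. No paired analysis was possible because each group has 1 library, and for the same reason no library could be left out. Depth limits Pkd1l1, Pkd2l1, Pkd2l2, Pkhd1l1 and Rfx4, which had at most 4 reads in 1 of the libraries.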

Other observations

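Neighbouring members on a chromosome did not always share a call. Anks6 and Invs, which encode proteins of the inversin compartment, lie 1222 kb apart on chromosome 4 with 10 symbols between them, and both were lower in the tumour library. Bbs7 and Bbs12, on chromosome 3 and 699 kb apart, had log2 ratios of -1.68 and 0.92. Both genes were called neither way in the pairs Pkd1 and Ift140, Nek8 and Ift20, and Ift46 and Cep164.

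Among markers of other kidney cells, 3 of 5 endothelial genes were lower in the tumour library (60%, against 28.0% of all genes) and 2 were neither. Kdr, the main receptor for VEGF, had 238 reads in the tumour and 3587 in normal kidney. Of 6 podocyte genes, 1 was higher (16.7%, against 31.2% of all genes), 2 were lower (33.3%, against 28.0%) and 3 neither. Wt1, also active in nephron progenitors, had 464 reads in the tumour and 135 in normal kidney. Of 5 macrophage genes, 4 were higher (80%, against 31.2% of all genes) and 1 was neither. The integrin gene Itgam had 726 and 47 reads, while Csf1r, the gene called neither way, had 689 and 1241. The summed levels of the 5 were 257 CPM in the tumour and 78.2 CPM in normal kidney. Of these sums, Lyz2 alone made up 157 and 13.8 CPM. Their part in the members' values was not tested.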
